A study of Rattus norvegicus with 23 samples.

Results

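The organ difference in the response to both operations was measured as the change in heart minus the change in kidney, each change being AVF+NX against Sham. AVF+NX rats had lost 5/6 of their kidney mass (NX) and carried an arteriovenous fistula, a surgical join of the jugular vein end-to-side onto the carotid artery, which sends arterial blood straight back to the veins. Sham rats had a sham operation. All were Sprague-Dawley rats of 13 weeks, and organs were taken 4 weeks after surgery. The comparison uses 15 of the 23 libraries of the series, chosen by group: 4 Heart AVF+NX, 3 Heart Sham, 4 Kidney AVF+NX and 4 Kidney Sham. Libraries from rats with nephrectomy alone were left out, so a difference here cannot be split between the 2 operations. The labels name biological replicates, do not tie organs of 1 number to 1 rat, and name no region of either organ, and the operated kidney is what nephrectomy left. The p-values measure the spread between these samples. In whole tissue, fewer cells of a type and less RNA per cell cannot be told apart.

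Loss of kidney mass leaves the remaining nephrons with more filtrate and more pressure, and inflammation, scarring and loss of tubule cells are known to follow in the remnant. A fistula returns extra blood to the heart, which is known for stretch of its chambers, release of natriuretic peptides and growth of the wall. Macrophages, which clear debris, and fibroblasts, which lay down collagen, take part in both organs, so a contrast between the organs asks which of these programmes went further in one of them.

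The tissues matched their labels. Myh6, the adult heart's main myosin, lay between 28380 and 41920 CPM (counts scaled to the TMM-adjusted library size) in every heart and at no more than 0.421 in any kidney, and Umod, the uromodulin of the thick ascending limb, lay between 1423 and 2934 CPM in kidneys and at 0 in hearts. Depth was uneven: Heart AVF+NX libraries held 11889483 to 48079431 counts, Heart Sham libraries 9894716 to 11866042, and kidney libraries 9069354 to 12637718. Small structured RNAs (snoRNAs and other short non-coding RNAs, 94 genes tested) stood apart between the heart groups. Their mean within-organ z-score was 0.62 to 0.74 in Heart Sham and -0.83 to -0.12 in Heart AVF+NX, without overlap, but -0.56 to 0.75 in Kidney AVF+NX around -0.37 to -0.07 in Kidney Sham. In heart this index and the operations therefore cannot be told apart. A call kept or lost with the index as a covariate thus does not sort genes by cause. Mitochondrial genes took 23.4% ± 1.74 (SD, n = 4) of counts in Heart AVF+NX, 21.2% ± 0.75 (n = 3) in Heart Sham, 7.49% ± 1.47 (n = 4) in Kidney AVF+NX and 8.52% ± 0.77 (n = 4) in Kidney Sham. The AVF+NX libraries numbered 1 and 2 stood apart from 3 and 4 in clock genes in both organs, as described with those genes.

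Of 15057 genes tested together, 5182 (34.4%) responded differently in the organs at an adjusted p below 0.05 (edgeR quasi-likelihood test, Benjamini-Hochberg adjustment over all genes). The heart change was the higher one for 2550 (16.9%) and the lower one for 2632 (17.5%). A negative organ difference thus means a smaller rise, or a deeper fall, in heart than in kidney. Within heart, 3247 genes (21.6%) rose and 2359 (15.7%) fell; within kidney, 2664 (17.7%) rose and 1784 (11.8%) fell. The kidney split of 59.9% higher became 42.4% with RLE size factors. The organ difference had 49.2% of its calls on the higher side, 54.1% with RLE size factors and 40.8% with TMM within each organ, which also took the heart split from 57.9% to 48.3% higher. With the small structured RNA index as a covariate in each organ 756 genes had a called organ difference, and with log2 total count 2167. Most differences were called in 1 organ only. Among the called genes, 1527 rose in heart and were not called in kidney, 1214 fell in heart alone, 931 rose in kidney alone and 429 fell in kidney alone. Opposite calls were made for 618 genes, 372 rising in heart and falling in kidney and 246 the reverse. Only 85 rose in both organs with more rise in kidney, and 29 with more rise in heart. Large differences mostly had the lower heart change, which can be a rise in kidney or a fall in heart. When the difference itself had to exceed 2-fold, 385 genes had the lower heart change and 10 the higher. Tested against the same threshold, 762 genes rose and 4 fell in kidney, and 6 rose and 144 fell in heart. The 11951 genes with at least 1 CPM in each organ held 4792 called organ differences (40.1%: 20.8% with the higher and 19.3% with the lower heart change). There the heart and kidney log2 changes had a Pearson r of 0.188 and a Spearman rho of 0.122, given as a description of genes that share libraries and depth.

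**Figure D1:**
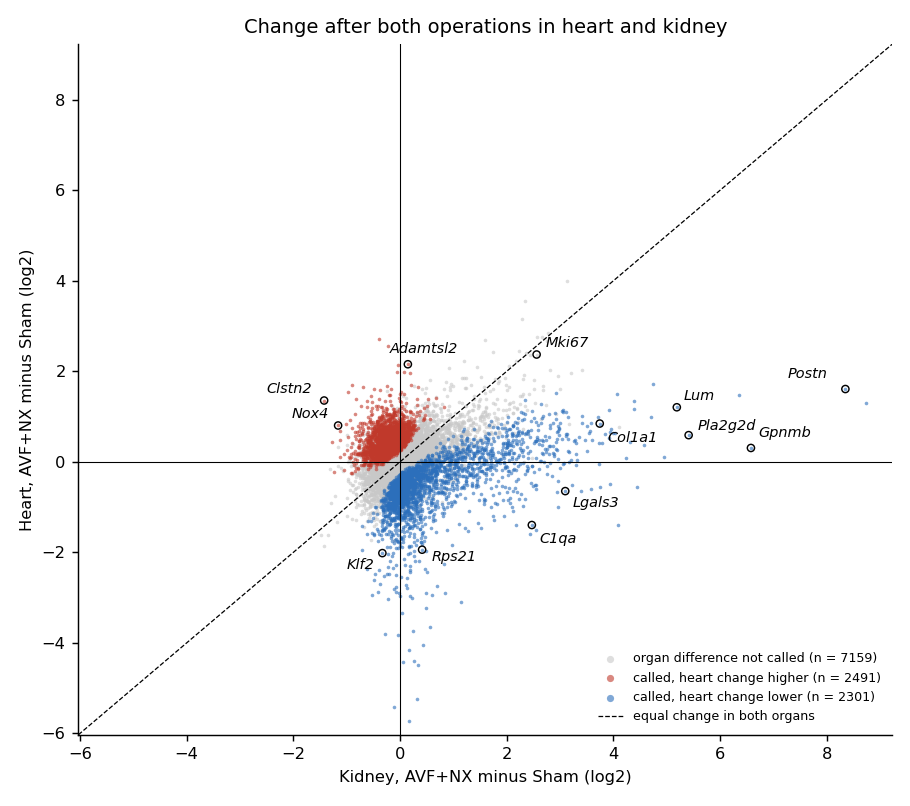
Log2 change after both operations in kidney (horizontal) and heart (vertical) for the 11951 genes with at least 1 CPM in each organ; colours mark the 2491 genes with a called higher heart change and the 2301 with a called lower one, and the dashed line is equal change. The blue points run far to the right along the horizontal axis, with Postn at 8.35 and Gpnmb at 6.58 in kidney, while the red points stay in a compact cloud near the centre.

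Gene lists were described by their counts and their median, beside the same over all genes tested, whose median organ difference was 0.02. Among all genes tested, 16.9% had a called higher and 17.5% a called lower heart change. Kidney medians ran to the right of heart medians for the immune and matrix lists, and to the left for podocyte, proximal tubule and hypoxia lists. The lists were chosen with earlier results of these data known and share members, so their medians are not independent of each other.

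**Figure D2:**
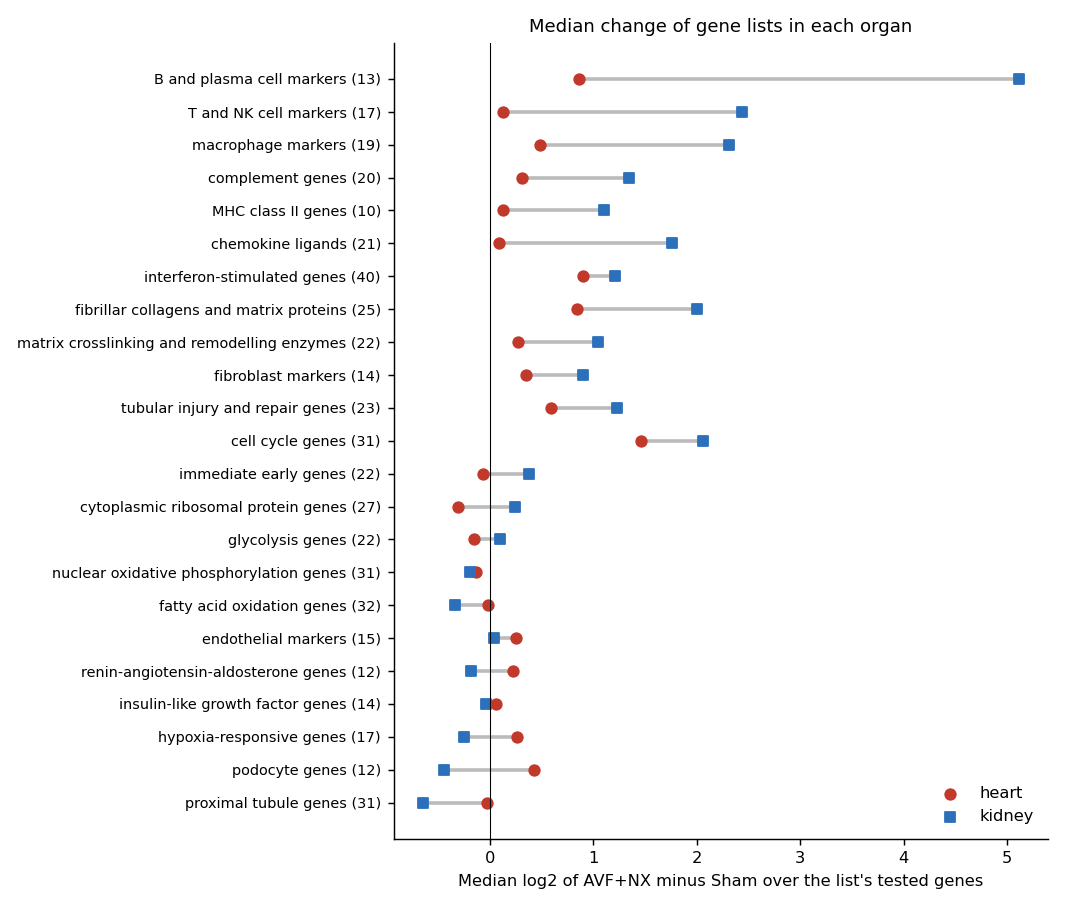
Median log2 change of AVF+NX against Sham in heart (red circles) and kidney (blue squares) for 23 gene lists, with the number of tested genes in brackets. B and plasma cell markers lie at 0.86 in heart and 5.11 in kidney, and cytoplasmic ribosomal protein genes lie on opposite sides of 0, at -0.31 and 0.24.

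Macrophage genes rose in the kidney and mostly not in the heart. Of 19 macrophage markers tested, 14 (73.7%) had a called lower heart change and none a higher one, against 17.5% and 16.9% of all genes; 19 rose in kidney, and in heart 5 rose and 1 fell. Their median organ difference was -2.07. Their summed level was 282 to 358 CPM in Kidney Sham, 1063 to 2307 in Kidney AVF+NX, 397 to 425 in Heart Sham and 584 to 751 in Heart AVF+NX, so the groups did not overlap in either organ.

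Gpnmb, a membrane glycoprotein of macrophages loaded with lipid or debris (ENSRNOG00000008816, chromosome 4 from 78694447 to 78715683, plus strand, as the files give it), had the widest difference of the macrophage list. It was at 3.50, 2.41, 1.79 and 2.48 CPM in Kidney Sham and 303, 101, 300.4 and 258 CPM in Kidney AVF+NX. Hearts held 13.9, 12.2 and 10.5 CPM after sham surgery and 16.9, 14.4, 14.6 and 14.4 CPM after both operations. Every operated kidney was above every other library, while the heart groups lay close together without overlap. The kidney log2 change was 6.58 (SE 0.35) and the heart change, which did not pass, 0.31 (SE 0.32), an organ difference of -6.27 (SE 0.47, edgeR adjusted p = 1.25e-06).

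The complement gene C1qa, a chain of the C1q molecule that macrophages make to tag debris, went in opposite directions. Kidneys rose from 17.1, 15.2, 13.3 and 17.6 CPM to 112, 63.9, 75.6 and 98.0 CPM. Hearts fell from 37.2, 31.8 and 37.1 CPM to 16.2, 12.0, 10.7 and 15.7 CPM. No library of one group reached the other group of its organ, and the organ difference was -3.87 (SE 0.26, edgeR adjusted p = 1.86e-07). Its partner chains C1qb and C1qc rose in kidney by 2.61 and 2.14 on the log2 scale, while their heart changes were -0.17 (SE 0.20) and -0.03 (SE 0.20) and did not pass. The 3 genes lie side by side on the minus strand of chromosome 5, from 155246447 to 155264143 in the files (build not given in the sources used here). Whether their heart changes differ from each other was not tested.

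Other genes of phagocytes followed. Lgals3, the lectin galectin-3, rose from a range of 7.31 to 10.6 CPM to one of 52.1 to 103 CPM in kidney and fell from a range of 13.4 to 18.5 CPM to one of 8.65 to 13.2 CPM in heart. Trem2, a lipid-sensing receptor, rose from a range of 0.552 to 1.14 CPM to one of 5.24 to 12.4 CPM in kidney, with 3.00 to 3.24 and 1.65 to 2.54 CPM in Sham and AVF+NX hearts. Pla2g7, a secreted phospholipase of macrophages, rose by 3.39 on the log2 scale in kidney and fell by 1.57-fold in heart, a log2 organ difference of -4.04 (SE 0.32). Pla2g2d, another secreted phospholipase, had an organ difference of -4.82 (SE 0.73), with 0.069 to 0.875 CPM in Kidney Sham against 6.45 to 36.4 after both operations. With the small structured RNA index as a covariate in each organ, Gpnmb, C1qa, Lgals3, Trem2, Pla2g7 and Pla2g2d still passed, while C1qb (adjusted p = 0.0667) and C1qc (adjusted p = 0.0789) did not.

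The promoters of Gpnmb, C1qa and C1qb are shown because these genes rose in the same kidneys and share a short motif that was not found in the other promoters searched for this list. The M-box TCATGTG, in either orientation, is bound by the MiT family of transcription factors, which run lysosomal and pigment-cell genes. Of the 14 macrophage markers with a called lower heart change, 11 had a promoter in the RefSeq table (GRCr8 build), and 3 of these held the M-box in the 250 bases before the start site. Single promoters held it at 3.07% of 33469, whereas a gene counted if any of its promoters matched. The same search was run on complement and interferon-stimulated genes with a called lower heart change. The genes were chosen by the organ difference and C1qa and C1qb are neighbours, so the counts are no test of enrichment. The capitals below mark the M-box, each sequence runs 5′ to 3′ on the gene's strand up to the start site, and a match of letters is a description, not a bound site.
Gpnmb (chr4:79340878-79341127, plus strand): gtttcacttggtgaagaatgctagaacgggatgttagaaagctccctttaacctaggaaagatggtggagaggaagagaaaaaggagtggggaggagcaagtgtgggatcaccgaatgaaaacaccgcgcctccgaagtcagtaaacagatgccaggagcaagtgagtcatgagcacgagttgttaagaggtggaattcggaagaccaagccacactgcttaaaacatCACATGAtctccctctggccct
C1qa (chr5:154419934-154420183, minus strand): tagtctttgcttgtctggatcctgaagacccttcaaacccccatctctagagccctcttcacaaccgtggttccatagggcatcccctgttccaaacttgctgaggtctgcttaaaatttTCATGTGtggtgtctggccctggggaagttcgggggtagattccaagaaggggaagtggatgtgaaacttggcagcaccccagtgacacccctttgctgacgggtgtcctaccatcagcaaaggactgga
C1qb (chr5:154407828-154408077, minus strand): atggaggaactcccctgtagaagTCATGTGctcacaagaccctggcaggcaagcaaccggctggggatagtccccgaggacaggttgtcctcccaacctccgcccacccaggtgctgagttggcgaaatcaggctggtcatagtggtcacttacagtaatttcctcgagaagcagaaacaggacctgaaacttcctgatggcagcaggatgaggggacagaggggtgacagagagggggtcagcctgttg
The match lies 22 bases before the start in Gpnmb, 130 in C1qa and 227 in C1qb. These were picked after 13 motifs had been searched on both strands: the M-box, the PU.1 motif GAGGAAGT, the CLEAR element (which contains the E-box), the E-box CACGTG, the core of the interferon-stimulated response element, the CCAAT box, the cell cycle homology region TTTGAA, the NF-kB site, the D-box TTATGTAA, the STAT site TTCCNGGAA, the AP-1 site TGAGTCA, the cyclic AMP element TGACGTCA and the SRF box.

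**Figure D3:**
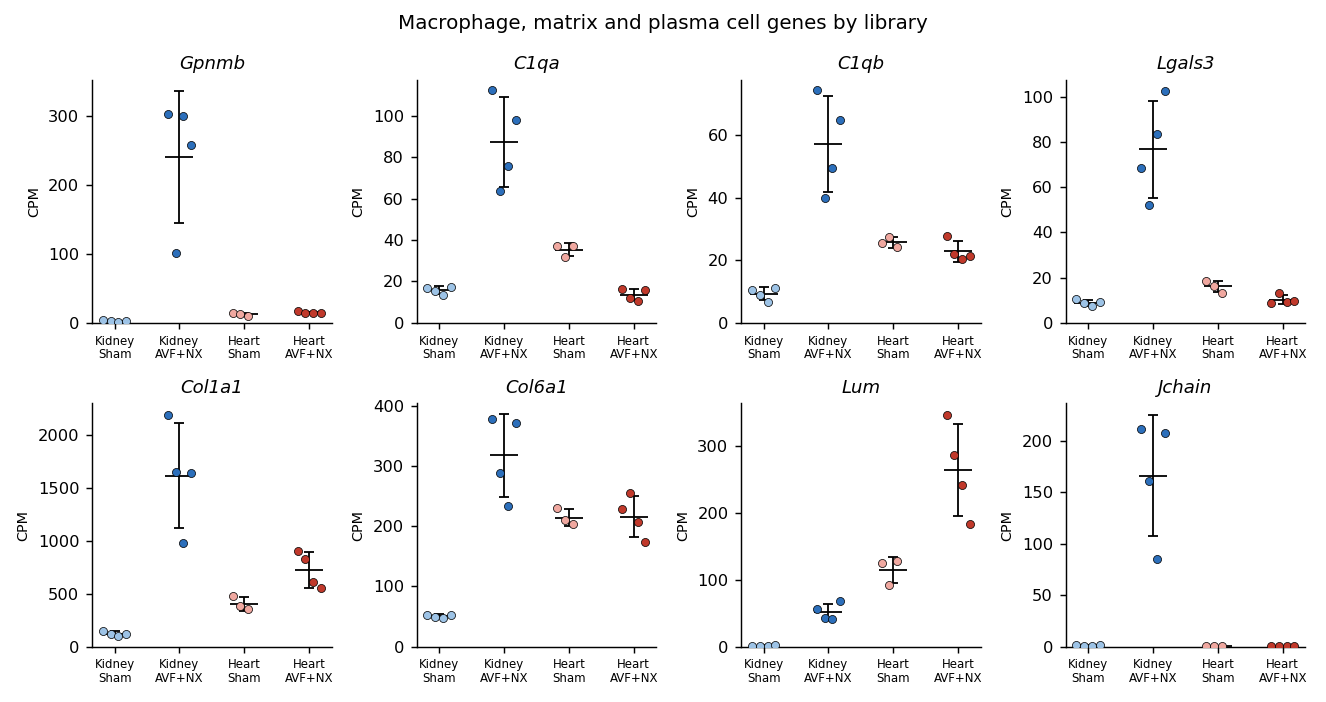
CPM of 8 genes in each of the 15 libraries (points), with mean and SD per group (bars), on linear axes from 0. Gpnmb, Lgals3 and Jchain are high in Kidney AVF+NX alone, C1qa falls in heart and rises in kidney, and Col1a1 and Lum rise in both organs.

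Of 17 markers of T and NK cells tested, 12 (70.6%) had a called lower heart change and none a higher one; 15 rose in kidney and 2 in heart. Lck, the kinase that starts T cell receptor signals, rose from 3.24, 2.86, 3.59 and 2.69 CPM to 17.7, 11.9, 21.4 and 13.6 CPM in kidney, and was 3.52, 3.14 and 4.02 CPM in Heart Sham and 2.35, 2.62, 4.26 and 3.12 CPM in Heart AVF+NX. The heart groups overlapped and the kidney groups did not. Cd247, the zeta chain of that receptor, and Zap70, the kinase it recruits, had organ differences of -3.25 (SE 0.47) and -2.90 (SE 0.55). Lck passed with the index as a covariate, and Cd247 (adjusted p = 0.0518) and Zap70 (0.154) did not.

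Of 13 B and plasma cell markers, 8 (61.5%) had a called lower heart change, 12 rose in kidney and 2 in heart, and the median organ difference was -3.86. Only 2 of the 13 reached 1 CPM in both organs, and over the alternatives the median ran from -4.45 to -0.78. Jchain, which joins secreted antibodies into polymers, went from 1.23, 0.521, 0.897 and 1.77 CPM to 212, 161, 85.1 and 208 CPM in kidney and was 0.112 to 0.932 and 0.346 to 0.739 CPM in Sham and AVF+NX hearts. The organ difference was -6.89 (SE 1.38, edgeR adjusted p = 0.00162), and -6.08 without Heart Sham library 1. Mzb1, a chaperone of antibody assembly, had a difference of -7.57 (SE 0.85). Mzb1 passed with the index as a covariate and Jchain did not (adjusted p = 0.0954). The antibody heavy chain gene Igh-6 was 366, 872, 578 and 1791 CPM in Kidney AVF+NX and at most 1.66 CPM elsewhere; its organ difference of -9.90 (SE 3.31) passed at an edgeR adjusted p of 0.0339, and without Heart Sham library 1, the only sham heart with a read, it was -4.43 (adjusted p = 1.0).

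Complement, antigen presentation and chemokine genes leaned the same way. Of 20 complement genes, 10 had a called lower and 2 a called higher heart change (median -0.89). Of 10 MHC class II genes, 6 were lower and none higher (median -0.84), and of 21 chemokine ligands, 10 were lower and 1 higher (median -1.71). Cfd, the factor D of the alternative pathway that fat cells also make, rose from 0.263, 0.781, 0.345 and 3.82 CPM to 37.3, 23.1, 15.9 and 24.1 CPM in kidney and was 11.5 to 12.4 and 9.02 to 16.5 CPM in Sham and AVF+NX hearts, a difference of -4.15 (SE 0.68), or -5.61 without Kidney Sham library 4. It was not alone among fat cell genes: of 8 adipocyte markers, 4 rose in kidney and none in heart, their summed level being 24.2 to 51.3 CPM in Kidney Sham and 85.7 to 115.5 in Kidney AVF+NX; their part in the Cfd result was not tested. C2, a classical pathway protease, differed by -3.27 (SE 0.37).

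Cd74, the invariant chain of class II molecules, went from 813, 795, 682 and 691 CPM to 1837, 1039.5, 1366 and 1363 CPM in kidney. Its levels were 538 to 569 CPM in Heart Sham and 490.4 to 557 CPM in Heart AVF+NX, which overlap, for a difference of -0.98 (SE 0.19). Ciita, the master switch of these genes, differed by -1.61 (SE 0.30). Cxcl9, which draws T cells, rose in both organs, by 1.11 in heart and 3.11 in kidney, with a difference of -1.998 (SE 0.45). Ccl7, which draws monocytes, rose by 3.26 (SE 0.48) in kidney from at most 0.263 CPM and had a heart change of 0.41 (SE 0.39). With the index as a covariate none of Cfd (adjusted p = 0.0844), C2 (0.13), Cd74 (0.226), Ciita (0.296), Cxcl9 (0.149) and Ccl7 (0.551) passed.

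Interferon-stimulated genes, in contrast, rose in both organs. Of 40 tested, 33 rose in kidney, and 22 rose and 2 fell in heart. Only 7 (17.5%) had a called lower heart change and none a higher one, a share equal to the 17.5% of all genes, and the median organ difference was -0.27. The median changed sign without Kidney AVF+NX library 1 and with the small structured RNA index as a covariate. The 7 were Irf1, Psmb8, Psmb9, Tap1, Bst2, Ifi27 and Cxcl10, and Psmb8, Psmb9 and Tap1 serve the cutting and transport of peptides for class I molecules. Psmb8, an immunoproteasome subunit, rose from 3.67, 3.78, 2.76 and 3.68 CPM to 14.3, 8.47, 9.68 and 13.0 CPM in kidney and fell from 6.84, 4.72 and 3.46 CPM to 3.06, 1.73, 1.86 and 3.93 CPM in heart; the heart groups overlapped. Tap1, the peptide transporter, rose in kidney by 1.20 (SE 0.19) on the log2 scale and fell in heart by 1.502-fold, a log2 difference of -1.78 (SE 0.28). Psmb9 and Irf1, the interferon regulatory factor, had differences of -1.83 (SE 0.25) and -1.003 (SE 0.18). With the index as a covariate Irf1 passed (adjusted p = 0.0199) and Psmb8 (0.106), Psmb9 (0.405) and Tap1 (0.755) did not. Tap1's promoter is shown because it holds the core of the interferon-stimulated response element, as did 4 of the 7 genes (Bst2, Cxcl10 and Ifi27 besides). All promoters held it at 3.41%, but a gene counted if any of its promoters matched. The list was made of genes that interferon induces, and its other members were not searched. The match therefore says nothing about the organ difference. The capitals mark it, in reverse complement, 121 bases before the start of Tap1.
Tap1 (GRCr8, chr20:4668544-4668793, minus strand): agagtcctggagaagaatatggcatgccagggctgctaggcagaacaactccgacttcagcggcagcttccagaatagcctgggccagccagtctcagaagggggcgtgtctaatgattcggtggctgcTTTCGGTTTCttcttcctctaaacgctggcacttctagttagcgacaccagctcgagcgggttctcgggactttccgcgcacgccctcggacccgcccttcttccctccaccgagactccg

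Matrix genes rose in both organs, further in kidney. Of 25 fibrillar collagens and matrix proteins, 23 rose in kidney and 15 in heart, none fell in either, and 15 (60.0%) had a called lower heart change, with a median difference of -1.30. Their summed level went from 1879 to 2496 CPM in Kidney Sham to 5037 to 11040 in Kidney AVF+NX, and from 4563 to 5328 CPM in Heart Sham to 6369 to 9514 in Heart AVF+NX. Sham hearts thus already held more matrix RNA than sham kidneys, and the operated groups overlapped.

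Col1a1, the main collagen of scars, was 152, 116, 96.0 and 119 CPM in Kidney Sham and 2196, 1652, 979 and 1646 CPM in Kidney AVF+NX. In heart it was 479.9, 381 and 351 CPM and 903, 832, 615 and 556 CPM. Neither organ's groups overlapped: the rise was 13.4-fold in kidney and 1.80-fold in heart, an organ difference of -2.90 (SE 0.33, edgeR adjusted p = 1.92e-05). Postn, periostin of activated fibroblasts, had the widest difference of all genes with at least 5 CPM in each organ, -6.74 (SE 1.11). It was 0, 0.0651, 0.138 and 0.637 CPM in Kidney Sham and 139, 54.7, 53.8 and 45.0 CPM in Kidney AVF+NX, and 11.4, 5.90 and 5.92 CPM and 40.3, 29.8, 13.4 and 10.3 CPM in Sham and AVF+NX hearts. The kidney change starts from nearly no reads, so its size is loose (-8.23 without Kidney Sham library 4 for the organ difference), and AVF+NX heart library 4 fell inside the sham range.

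The collagen VI chains, which bind cells to the matrix, changed in 1 organ. Col6a1 rose from 53.02, 49.6, 48.0 and 53.02 CPM to 377, 288, 233 and 372 CPM in kidney, while hearts held 230.4, 209.6 and 203 CPM and 229, 254, 207 and 174 CPM. The heart change of 0.01 (SE 0.15) left a difference of -2.63 (SE 0.20), and Col6a2 had nearly the same, -2.31 (SE 0.19). Lum, the proteoglycan lumican that spaces collagen fibrils, rose by 1.21 in heart and 5.19 in kidney. Col5a3, a minor fibrillar collagen, differed by -3.88 (SE 0.71), and by -3.24 without Heart Sham library 1, and its heart groups overlapped. Col4a2 of basement membranes fell in heart from a range of 406 to 468 CPM to one of 242 to 354 CPM and rose in kidney from a range of 256 to 312 CPM to one of 351 to 684 CPM. Fn1, fibronectin, rose in both (1.16 in heart, 1.84 in kidney) and its organ difference of -0.67 (95% interval -1.67 to 0.32) did not pass.

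Of 22 matrix crosslinking and remodelling enzymes, 10 (45.5%) had a called lower and 2 (9.1%) a higher heart change (median -0.81). Of 14 fibroblast markers, 5 (35.7%) were lower and none higher (median -0.36). Mmp2, a gelatinase, rose by 2.30 in kidney with a heart change of 0.44 (SE 0.22). The protease inhibitors split: Timp2 rose in kidney alone (difference -1.36, SE 0.15), whereas Timp3 rose in heart from 177, 200.3 and 184 CPM to 234, 272, 309 and 289.9 CPM and fell in kidney from 728, 725, 613 and 662 CPM to 339, 460.5, 563 and 526 CPM. Neither pair of Timp3 groups overlapped, and its difference was 1.09 (SE 0.19). Tgfb1, the growth factor best known for driving scars, rose by 1.21 in kidney and had a heart change of -0.13 (SE 0.14). In the list of 27 TGF-beta and BMP genes, 4 (14.8%) were lower and 2 (7.4%) higher (median -0.12). Among all genes 17.5% were lower and 16.9% higher. With the index as a covariate, Col6a1, Col6a2, Lum and Timp2 passed and Col1a1 (adjusted p = 0.096), Postn (0.226), Mmp2 (0.215) and Timp3 (0.424) did not.

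Of 23 genes of tubular injury and repair, 19 rose in kidney and 7 in heart. A called lower heart change was found for 7 (30.4%, against 17.5% of all genes), while 16 had no called organ difference. The list's median difference was -1.09. Lcn2, the injury marker lipocalin-2, was 2.98, 0.846, 1.03 and 0.212 CPM in Kidney Sham and 35.4, 57.7, 3.49 and 19.3 CPM in Kidney AVF+NX, with 8.91, 3.01 and 3.01 CPM and 4.28, 11.7, 5.35 and 4.04 CPM in heart. Kidney AVF+NX library 3 stood near the sham kidneys, the difference was -4.21 (SE 1.21, edgeR adjusted p = 0.0169), and without Heart Sham library 1 it was -3.46 (adjusted p = 0.0854), and without Kidney Sham library 1 -4.97. Havcr1 (kidney injury molecule 1) and Spp1 (osteopontin) rose in kidney by 3.87 and 1.78 but were at most 0.199 and 12.4 CPM in any heart, and their organ differences of -2.10 (SE 4.33) and -1.12 (SE 1.24) did not pass. Without Heart AVF+NX library 2, which held the 12.4 CPM, Spp1 passed at -2.93 (adjusted p = 0.0209); without Heart Sham library 2 it was at -0.07.

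Proximal tubule genes fell in kidney (20 of 31, against 11.8% of all genes, none rising), but only 6 reached 1 CPM in both organs. A called organ difference was found for 3 of the 31 (9.7%, against 34.4% of all genes). All 3 had the higher heart change, which 16.9% of all genes had. Adding log2 total count took the list's median from 0.51 to -0.03. Cubn, the endocytic receptor cubilin, fell from a range of 1959 to 2529 CPM to one of 1163 to 1642 CPM in kidney against 0.893 to 1.18 and 1.27 to 1.65 CPM in Sham and AVF+NX hearts. Slc3a1, a subunit of the cystine transporter, fell from 2269.9, 2173, 1919 and 2323 CPM to 1023, 1269.9, 1606 and 1657 CPM in kidney and rose from 42.8, 50.3 and 49.2 CPM to 65.2, 72.5, 68.8 and 60.5 CPM in heart, without overlap in either organ. Slc7a7, a cationic amino acid transporter, differed by 1.499 (SE 0.36). Slc34a1, the phosphate transporter, Umod and Kl, the FGF23 co-receptor klotho, fell in kidney by 1.87-, 1.45- and 1.59-fold and were below 1 CPM in all hearts. Of 29 distal nephron genes, 14 fell in kidney. A higher heart change was called for 3 (10.3%) and a lower one for 2 (6.9%), against 16.9% and 17.5% of all genes.

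The podocyte list holds genes that are not confined to podocytes, and 10 of its 12 members reached 1 CPM in both organs. Of the 12, 7 (58.3%) had a called higher heart change and none a lower one, against 16.9% of all genes; 7 fell in kidney, and 6 rose and 1 fell in heart. Cd2ap, an adaptor of the actin skeleton, rose from 28.6, 26.6 and 28.4 CPM to 55.6, 50.9, 51.9 and 49.3 CPM in heart, with 113, 125, 114 and 109 CPM and 115, 116, 113 and 119.7 CPM in Sham and AVF+NX kidneys. The heart groups lay far apart and the kidney groups overlapped, a difference of 0.89 (SE 0.09, edgeR adjusted p = 7.49e-06). Clic5, a chloride channel protein at the membrane skeleton, rose from 388, 408 and 420.4 CPM to 624, 653, 630.0 and 675 CPM in heart and fell from 134, 175, 178 and 149 CPM to 69.2, 114, 92.1 and 88.1 CPM in kidney. Magi2, a scaffold protein, and Plce1, a phospholipase C, also rose in heart and fell in kidney, with differences of 1.88 (SE 0.31) and 0.90 (SE 0.14). With the index as a covariate Cd2ap and Plce1 passed, and Clic5 (adjusted p = 0.072) and Magi2 (0.0824) did not.

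Of 15 endothelial markers, 4 had a called higher and 2 a called lower heart change (median 0.12), and 9 were not called, against 16.9% higher and 17.5% lower among all genes. The 4 were Emcn, Tek, Kdr and Flt1, and each rose in heart and fell in kidney. Emcn, endomucin of capillary and venous endothelium, was 36.9, 30.4 and 40.2 CPM in Heart Sham and 70.8, 69.4, 77.5 and 70.1 CPM in Heart AVF+NX. In kidney it went from 63.7, 56.0, 55.3 and 62.0 CPM to 41.1, 45.9, 51.7 and 52.3 CPM. The operated hearts lay above all sham hearts and the operated kidneys below all sham kidneys, a difference of 1.32 (SE 0.14, edgeR adjusted p = 7.90e-06). Kdr, the main receptor for VEGF, rose from 165, 157 and 163 CPM to 284, 366, 280.1 and 182 CPM in heart and fell from 134, 160.5, 152 and 136 CPM to 102, 120.1, 111 and 104 CPM in kidney. Tek, the angiopoietin receptor, and Flt1, a second VEGF receptor, had differences of 0.89 (SE 0.14) and 0.77 (SE 0.15). With the index as a covariate Emcn, Kdr and Tek passed, and Flt1 did not (adjusted p = 0.0927); Kdr lost its call (adjusted p = 0.0807) when log2 total count was added.

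Hypoxia-responsive genes moved toward heart: 6 of 17 (35.3%) had a called higher and 1 (5.9%) a lower heart change (median 0.56). Vegfa, the ligand of Kdr and Flt1, fell in kidney from a range of 179 to 183 CPM to one of 129 to 172 CPM and was 319 to 341 and 342 to 454 CPM in Sham and AVF+NX hearts, a difference of 0.57 (SE 0.15). Epas1, the transcription factor HIF-2 alpha, differed by 0.57 (SE 0.14), and Egln1, the oxygen-sensing enzyme that marks HIF for destruction, rose in heart by 0.48 (SE 0.09) with a kidney change of -0.08 (SE 0.09). With the index as a covariate Vegfa passed (edgeR adjusted p = 0.0289), and Epas1 (0.639) and Egln1 (0.432) did not. With log2 total count added, none of Vegfa (0.196), Epas1 (0.0952) and Egln1 (0.119) passed.

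**Figure D4:**
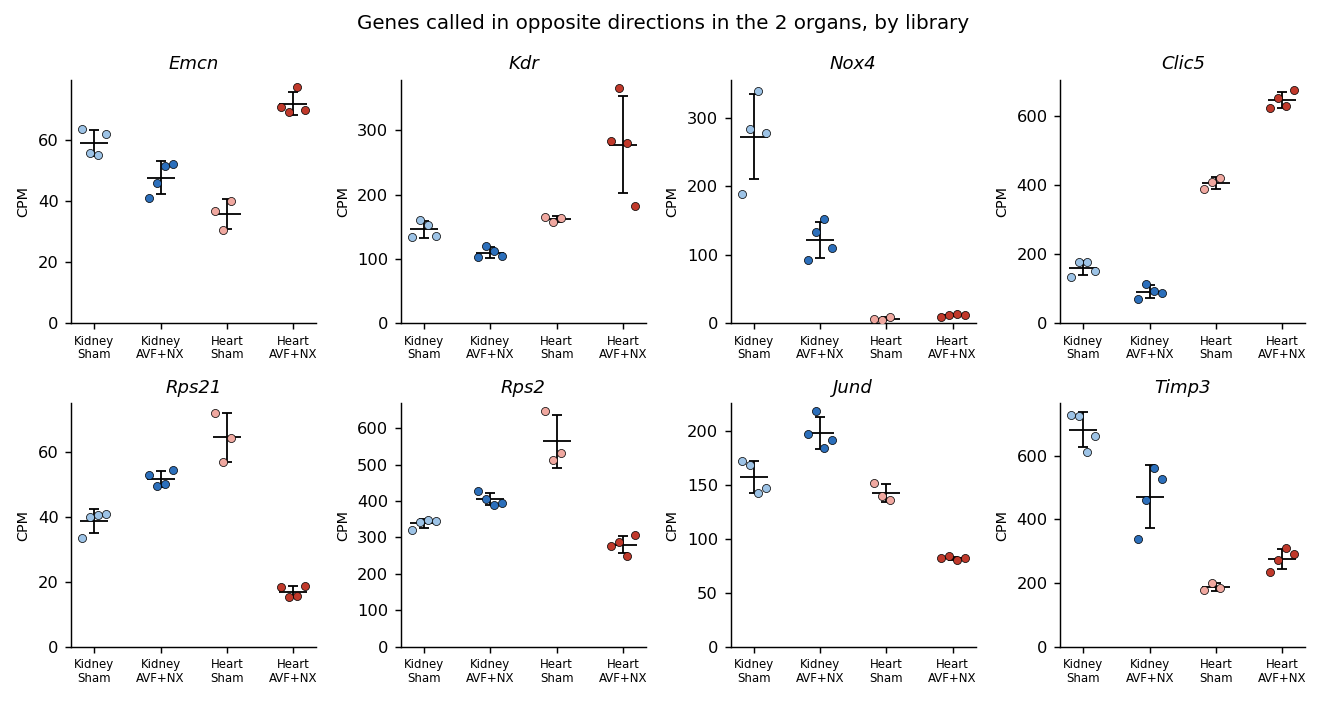
CPM of 8 genes that rose in 1 organ and fell in the other, in each of the 15 libraries (points), with mean and SD per group (bars), on linear axes from 0. Emcn, Kdr, Nox4, Clic5 and Timp3 are higher in Heart AVF+NX than in Heart Sham and lower in Kidney AVF+NX than in Kidney Sham, and Rps21, Rps2 and Jund do the reverse.

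Ribosomal protein genes, which build the machinery of translation, fell in heart and rose in kidney. Of 27 cytoplasmic ribosomal protein genes, 17 (63.0%) had a called lower heart change and none a higher one; 17 fell and 1 rose in heart, while 14 rose and none fell in kidney (median difference -0.51). Rps21 had the smallest p of the list. It was 72.0, 56.9 and 64.2 CPM in Heart Sham and 18.2, 15.4, 15.4 and 18.7 CPM in Heart AVF+NX, but 33.3, 39.9, 40.4 and 40.9 CPM in Kidney Sham and 52.7, 49.4, 49.9 and 54.3 CPM in Kidney AVF+NX. Neither organ's groups overlapped, and the difference was -2.36 (SE 0.14, edgeR adjusted p = 6.67e-08). Rps2 went from a range of 514 to 649 CPM to one of 249 to 306 CPM in heart and from a range of 322 to 349 CPM to one of 390.4 to 428 CPM in kidney. Rps16 and Rpl22 had differences of -1.60 (SE 0.18) and -1.21 (SE 0.14). Ribosomal protein genes have many near-identical pseudogenes, among which the authors' counting could split reads.

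These genes are short, and length moved with the heart change. Length here is the value given for each gene with the counts, not that of a single transcript. Across the 15057 genes the Spearman correlation of this length with the log2 change was 0.194 in heart and -0.00261 in kidney. Among the shortest 3766 genes (49 to 1495 bases) the median heart change was -0.05 and 357 genes had a called higher and 884 a lower heart change; among the longest 3764 (3608 to 29464 bases) the median was 0.22, with 934 higher and 523 lower. Small structured RNAs, most of which carry no poly(A) tail, fell in heart: of the 50 with at least 1 CPM in each organ, 35 fell and 2 rose in heart, while none fell and 3 rose in kidney. Rmrp, the RNA part of the RNase MRP enzyme, and Terc, the telomerase RNA, were picked after their values were seen. Rmrp was 3248, 2759.6 and 2890.5 CPM in Heart Sham and 476, 440.0, 327 and 488 CPM in Heart AVF+NX, against 5555 to 7225 and 6638 to 8764 CPM in Sham and AVF+NX kidneys, a difference of -2.91 (SE 0.20). Terc differed by -3.40 (SE 0.42). The part of gene length and of these RNAs in the ribosomal result was not tested as a cause. With each library's length trend removed Rps21, Rps2, Rps16 and Rpl22 passed. With the index as a covariate Rps21, Rps2 and Rps16 passed and Rpl22 did not (edgeR adjusted p = 0.0559).

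Immediate early genes are the first to be transcribed after a stimulus. Of 22, 6 (27.3%, against 17.5% of all genes) had a called lower heart change and none a higher one. Their median difference was -0.61, or 0.01 with the index as a covariate. Jund, an AP-1 subunit, fell from 152, 139.5 and 136 CPM to 81.8, 83.6, 80.1 and 82.0 CPM in heart and rose from a range of 143 to 172 CPM to one of 184 to 219 CPM in kidney. The heart groups did not overlap, and the difference was -1.13 (SE 0.11, edgeR adjusted p = 4.61e-06). Klf2, which endothelial cells make under blood flow, fell from 70.6, 81.0 and 78.7 CPM to 23.9, 12.8, 24.6 and 13.6 CPM in heart, and its kidney change was -0.33 (SE 0.19). Junb differed by -1.20 (SE 0.24). How long tissues waited before freezing is not given in the sources used here.

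Heart stress genes could be compared only where the kidney makes them. Of 14 tested, 2 (14.3%) had a called higher and 2 (14.3%) a lower heart change, against 16.9% and 17.5% of all genes. Ankrd1, a stretch-responsive protein of the sarcomere, rose from 2703, 3146 and 2944 CPM to 6886, 4844, 5065 and 6239 CPM in heart and was 1.34 to 2.80 and 1.86 to 2.04 CPM in Sham and AVF+NX kidneys. Rcan1, a target of calcineurin, rose by 0.96 (SE 0.17) in heart with a kidney change of -0.02 (SE 0.16). The lower ones, Tpm2 and Flnc, which bind and crosslink actin in muscle, rose in kidney by 1.35 and 2.48 and had heart changes of -0.16 (SE 0.19) and -0.08 (SE 0.30). Nppa, the atrial natriuretic peptide gene, rose from 101, 81.1 and 129 CPM to 1201, 444, 256 and 260.2 CPM in heart and Nppb from 150.3, 105 and 71.5 CPM to 331, 471, 434 and 208 CPM. Kidneys held none of Nppb and at most 0.0807 CPM of Nppa, so no organ difference could be measured. Of 7 natriuretic peptide and receptor genes none was called, nor was Myh7, the slow myosin (-0.26, SE 0.22, in heart). Of 18 contractile genes, 2 (11.1%, against 17.5% of all genes) were lower and none higher.

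Energy genes divided within their lists. Of 32 fatty acid oxidation genes, 8 (25.0%) had a called higher and 2 (6.2%) a lower heart change (median 0.20). In kidney 16 fell and none rose, against 6 up and 7 down in heart. Cpt2, which brings fatty acids into mitochondria, rose from 283, 326 and 292 CPM to 458, 473, 507 and 429.8 CPM in heart and fell from 30.9, 36.5, 43.6 and 36.7 CPM to 24.2, 26.8, 32.6 and 26.9 CPM in kidney, where the groups overlapped. The difference of Cpt2 was 1.06 (SE 0.16). Ppargc1a, a coactivator of mitochondrial genes, rose in heart by 0.46 (SE 0.08), and Etfb, an electron carrier, fell there by 2.17-fold. Of 31 nuclear oxidative phosphorylation genes, 8 (25.8%) were higher and 7 (22.6%) lower, against 16.9% and 17.5% of all genes. Uqcrh and Uqcrc2 of complex III rose in heart (0.67 and 0.46), while Cyc1 of that complex and Ndufb8 of complex I fell (-1.03 and -0.74). All 4 had kidney changes that did not pass. Of 13 mitochondrial chromosome genes, 3 were higher and 1 lower.

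Glycolysis genes split as well, with 4 of 22 (18.2%) higher and 6 (27.3%) lower, against 16.9% and 17.5% of all genes. Their median was -0.24, or 0.07 with the index as a covariate. Hk2, a hexokinase, went from 15.9, 14.5, 10.9 and 15.8 CPM to 30.3, 28.4, 25.8 and 37.1 CPM in kidney, and hearts held 223 to 232 and 174 to 247 CPM. Its kidney groups lay apart and its heart groups overlapped, a difference of -1.20 (SE 0.21). Slc16a3, a lactate exporter, rose by 1.25 (SE 0.19) in kidney. Gpi, the second enzyme of the pathway, rose in heart (0.37) and Pfkl, a phosphofructokinase, fell there (-0.55), and neither kidney change passed. With the index as a covariate none of Hk2 (edgeR adjusted p = 0.71), Slc16a3 (0.662), Gpi (0.113) and Pfkl (0.995) passed.

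Cell cycle genes rose in both organs. Of 31 tested, 27 rose in kidney and 19 in heart, and none fell. A called lower heart change was found for 6 (19.4%) and a higher one for 1 (3.2%), against 17.5% and 16.9% of all genes. Their median difference was -0.59, or 1.29 with the index as a covariate. Mki67, the proliferation marker Ki-67, was 3.83, 6.03 and 4.69 CPM in Heart Sham and 33.0, 33.7, 17.5 and 14.1 CPM in Heart AVF+NX. In kidney it was 5.60, 4.82, 4.97 and 5.59 CPM and 35.7, 38.4, 22.4 and 27.2 CPM. Mki67 rose in both organs without overlap, and the organ difference did not pass at -0.19 (SE 0.43, 95% interval -1.11 to 0.73), turning to 1.76 (adjusted p = 0.0375) with the index as a covariate. Mcm5 and Mcm3, of the helicase that opens DNA for replication, rose in kidney by 1.92 and 2.23 and had heart changes of 0.16 (SE 0.18) and 0.60 (SE 0.29). Bub1, a spindle checkpoint kinase, differed by -1.71 (SE 0.43). The exception was Kif11, a spindle motor, which rose in heart from a range of 0.447 to 0.932 CPM to one of 1.85 to 5.40 CPM, while Sham and AVF+NX kidneys held 23.8 to 45.3 and 24.3 to 36.6 CPM and overlapped.

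The renin-angiotensin-aldosterone system sets salt balance and vessel tone. Of 12 of its genes, 4 (33.3%) had a called higher and 2 (16.7%) a lower heart change (median 0.51). Among all genes these shares were 16.9% and 17.5%. Enpep, aminopeptidase A, rose in heart (0.66) and fell in kidney (-0.61), and Atp6ap2, the prorenin receptor, differed by 0.66 (SE 0.16). Cma1, the mast cell chymase, had no read in Kidney Sham and averaged at least 6.67-fold above the level of 3 counts over that group after both operations. Kidney AVF+NX library 3 had no read either, so the groups overlapped in kidney as well as in heart. Of 14 insulin-like growth factor genes, 4 (28.6%) were higher and 1 (7.1%) lower. Igf1, the growth factor, rose in heart from 22.7, 18.2 and 23.2 CPM to 52.98, 43.8, 48.8 and 39.3 CPM, and Mest, an imprinted growth gene in that list, by 4.42-fold. Igf1r, the receptor, fell in kidney (-0.34). Igfbp6, a binding protein, rose in kidney by 7.24-fold and differed by -3.16 (SE 0.43). The call of Igf1 (edgeR adjusted p = 0.029) ended when any 1 of Heart AVF+NX 1, Heart AVF+NX 3, Heart Sham 2, Kidney AVF+NX 2, Kidney Sham 2 and Kidney Sham 3 was left out, at adjusted p-values of 0.0503 to 0.0812.

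Clock genes split the operated libraries of each organ. Arntl, an activator of the circadian clock, was 62.1, 66.8, 20.2 and 9.24 CPM in Heart AVF+NX and 44.0, 45.6, 9.37 and 7.84 CPM in Kidney AVF+NX, in the order of the labels' numbers. Dbp, an output gene in the opposite phase, was 10.7, 13.4, 84.5 and 95.4 CPM and 22.96, 23.6, 119 and 99.0 CPM in the same libraries. Numbers 1 and 2 were high in Arntl and low in Dbp in both organs, and the organ differences of 0.86 (SE 1.30) and -0.44 (SE 1.04) did not pass. With treatment and number taken as 1 rat, Arntl passed at 1.22 (edgeR adjusted p = 0.0049) and Dbp did not (-0.71, adjusted p = 0.0623). With the small structured RNA index as a covariate, Dbp passed at -5.89 (edgeR adjusted p = 0.0375) and Arntl did not (4.27, adjusted p = 0.253). Of 20 clock genes, 2 had a called organ difference. Rora, a nuclear receptor that drives Arntl, rose in heart from 17.9, 17.9 and 17.9 CPM to 25.3, 26.2, 21.9 and 26.1 CPM and fell in kidney from 41.6, 40.4, 40.2 and 42.0 CPM to 28.2, 34.4, 27.1 and 28.4 CPM, without overlap, and Clock, the partner of Arntl, differed by 0.61 (SE 0.18). The time of day of collection is not given in the sources used here. Without libraries 1 and 2 of AVF+NX in both organs, 3729 genes had a called organ difference. Of 112 called genes named here (Bst2, Ifi27 and Cxcl10 not counted), 103 passed, and Clock was at an edgeR adjusted p of 0.0504.

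**Figure D5:**
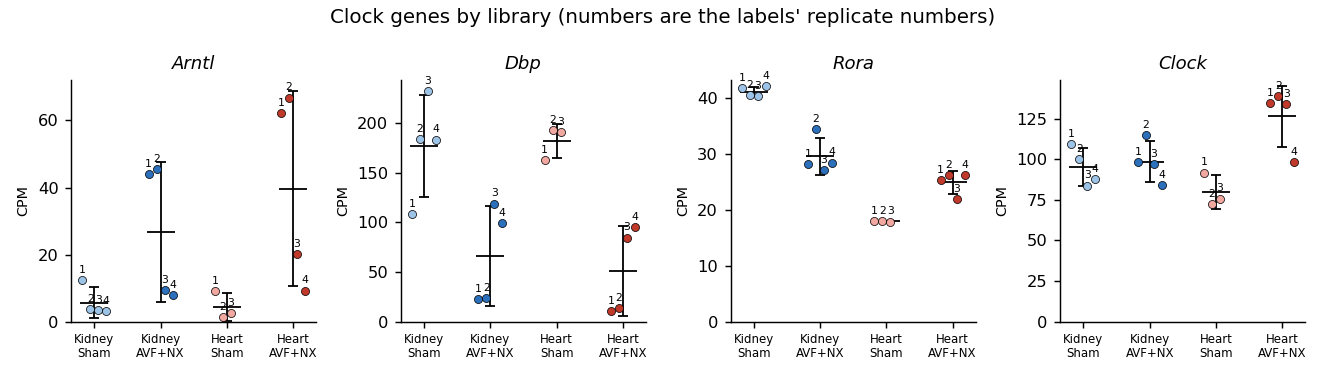
CPM of 4 clock genes in each of the 15 libraries (points, with the labels' replicate number), with mean and SD per group (bars), on linear axes from 0. AVF+NX libraries 1 and 2 stand above 3 and 4 for Arntl and below them for Dbp in both organs, while Rora lies in tight groups that part in both organs.

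Genes with the largest higher heart change, at 5 CPM or more in each organ, had smaller differences than those with the largest lower heart change. Clstn2, a calsyntenin of cell membranes, led: it rose from 6.63, 10.1 and 18.3 CPM to 51.2, 31.7, 20.4 and 14.8 CPM in heart and fell from 24.6, 28.4, 29.8 and 22.9 CPM to 12.2, 15.2, 7.06 and 4.96 CPM in kidney. Heart AVF+NX library 4 lay within the sham range, and the difference was 2.78 (SE 0.61, edgeR adjusted p = 0.0033). Nox4, an NADPH oxidase abundant in kidney tubules, rose from 6.11, 4.06 and 8.93 CPM to 8.93, 11.5, 13.1 and 11.3 CPM in heart and fell from 188, 283, 339 and 278 CPM to 92.3, 133, 152 and 109.8 CPM in kidney. In heart 1 operated and 1 sham library met at 8.93 CPM, and in kidney the groups lay apart (difference 1.96, SE 0.34). Adamtsl2, a matrix protein that binds latent TGF-beta complexes, rose 4.46-fold in heart, and Shroom2, of the actin skeleton, 3.01-fold. Ca5b, a mitochondrial carbonic anhydrase, rose in heart and fell in kidney (difference 1.60, SE 0.21). The others were Prg4 (1.85), Cryl1 (1.65), Colgalt2 (1.61), Atp2b2 (2.03) and AY172581.14 (1.69), a gene of 75 bases on the mitochondrial chromosome. The rise of Cryl1 leaned on Heart AVF+NX library 3, at 100.7 CPM against 32.7 to 39.1 in the other 3. Atp2b2 was 9.73, 8.05, 27.4 and 45.6 CPM in Heart AVF+NX and 5.37 to 5.80 CPM in Heart Sham, so its rise leaned on libraries 3 and 4. Its call (edgeR adjusted p = 0.0291) ended in 5 of the fits that left out 1 library.

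A further 10 genes were named because they had at least 5 CPM in 1 organ and under 1 CPM in the other. Cacng6, a calcium channel subunit of muscle, had no read in Kidney Sham and 2.18, 0.645, 0.794 and 1.20 CPM in Kidney AVF+NX, at least 22.2-fold above the level of 3 counts over the sham group, and hearts held 10.9 to 12.9 and 5.75 to 8.62 CPM. Rbp7, a retinol-binding protein, was likewise without a read in Kidney Sham and at least 22.2-fold above that level after both operations. On the other side, Klk1b3, a kallikrein of kidney, and Trpm1, a cation channel, had no read in Heart Sham. They were at 0.188 to 0.571 and 0 to 0.235 CPM in Heart AVF+NX, where some libraries were deeper. Klk1b3 averaged at least 2.91-fold above the level of 3 counts over the sham group. That level was 0.114 CPM, which lies inside the Trpm1 range. The call of Trpm1 ended without any 1 of the sham hearts (edgeR adjusted p of 0.0509 to 0.0629). Psat1, Defb1 and Efhc2 stood below 1 CPM in all hearts, with differences of 2.68 (SE 0.69), 2.85 (SE 0.90) and 2.72 (SE 0.84); Efhc2 was at 5.29 without Heart Sham library 2 and at 2.16 (adjusted p = 0.124) without library 1. Igh-6, Mzb1 and Jchain made up the rest.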

How the data were processed

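Poly(A) RNA from rat heart and kidney was sequenced in strand-specific libraries, per the labels' protocols. The authors deposited raw counts per gene, made with Trimmomatic 0.36, STAR 2.5.2b and featureCounts of Subread 1.5.2, per the submitters' processing notes. The build they were aligned to is not given in the sources used here. Besides these, the authors deposited comparison tables with log2 fold changes, p-values and normalized signal (counts divided by 1 factor per library, as read from the values). Those tables gave gene symbols and no value printed here.

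Counts of 15 libraries were fitted once in edgeR 4.0.16 (R 4.3.3; filterByExpr by group, TMM scaling, robust quasi-likelihood, 1 mean per group), and the organ difference, heart effect and kidney effect were tested as contrasts, called at a Benjamini-Hochberg adjusted p below 0.05 over 15057 genes. Standard errors are the absolute log2 change over the square root of F. TMM scales libraries on the assumption that most genes do not change. Alternatives included RLE factors, DESeq2 1.42.0, limma 3.58.1 voom, other filters, thinning, covariates, replicate blocks and leaving out each library.

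The comparison, the gene lists and the genes named were chosen with earlier results of these data known. Named were the 10 largest called differences in each direction at 5 CPM or more in each organ, the 5 largest in each direction at 5 CPM or more in 1 organ and below 1 CPM in the other (placeholder symbols left out), up to 4 members of smallest p in each list described, and 13 genes always. Other members named by their list's count, and Rmrp and Terc, were chosen after their values were seen. Some genes that this rule names are not reported here. CPM is not divided by length, so levels of different genes were not compared. Where a group had no read, folds were taken against 3 counts over that group. Promoters are RefSeq sequences on GRCr8, a build not mixed with the files' coordinates.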

Additional observations from a re-analysis of the deposited data

Results flagged for a closer look

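A response in opposite directions was called in both organs for 618 genes whose organ difference was called as well, and 30 of these are named in the text. Among them the heart change was the higher one, by 6.40 for Klk1b3 (whose sham hearts had no read, so that the fitted size is no bound), 2.78 for Clstn2, 2.68 for Psat1, 1.96 for Nox4 and 1.88 for Magi2 on the log2 scale. Smaller positive differences were 1.60 for Ca5b, 1.48 for Clic5, 1.40 for Hspa8, 1.32 for Emcn, 1.27 for Enpep, 1.20 for Kdr, 1.14 for Slc3a1, 1.09 for Timp3 and 1.06 for Cpt2. The smallest were 0.95 for Rora, 0.90 for Plce1, 0.89 for Tek and 0.77 for Flt1. The heart change was the lower one for immune genes, at -4.04 for Pla2g7, -3.87 for C1qa, -3.75 for Lgals3, -2.72 for Psmb8 and -1.78 for Tap1. It was also lower for the ribosomal protein genes Rps21 (-2.36), Rps16 (-1.60), Rps2 (-1.27) and Rpl22 (-1.21), for the collagen gene Col4a2 (-1.47), for Pmvk of cholesterol synthesis (-1.33) and for Jund (-1.13).

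In groups of 4 libraries, 24 of 365 gene and group pairs held a library far from the other 3; chance gives about 1 in 20, and the group of 3 sham hearts was not examined. In Heart AVF+NX these were library 1 for Gpnmb (16.9 CPM), library 2 for Cma1 (3.13 CPM), Lcn2 (11.7 CPM) and Spp1 (12.4 CPM), library 3 for Cryl1 (100.7 CPM), and library 4 for Clock (98.5 CPM) and Jchain (0.346 CPM). In Kidney AVF+NX they were library 1 for Postn (139 CPM) and Myh7 (0.211 CPM), library 2 for Ndufb8 (110.3 CPM) and Nppa (0.0807 CPM), and library 3 for Rmrp (8764 CPM). In Kidney Sham, library 1 stood apart for Arntl (12.4 CPM) and Rps21 (33.3 CPM), and library 2 for Rps16 (299.7 CPM). Library 3 stood apart for Atp2b2 (9.80 CPM), Cirbp (45.7 CPM), Magi2 (18.1 CPM), Pfkl (76.9 CPM) and Psmb8 (2.76 CPM), and library 4 for C2 (4.11 CPM), Hbb (71.9 CPM), Cfd (3.82 CPM) and Igf1 (31.4 CPM).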

How the results depend on the processing

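The 5182 called organ differences, 5606 heart effects and 4448 kidney effects stayed within 1.5 times of these counts under every alternative run except 4. With a test against a fold threshold of 2 they were 395, 150 and 766. With log2 total count as a covariate they were 2167, 1790 and 2524, and with the small structured RNA index 756 and 818 for organ difference and heart. Without the AVF+NX libraries numbered 1 and 2 of both organs, an alternative chosen after seeing the data, they were 3729, 4363 and 2208. Leaving out each library in turn gave 4458 to 5474 organ differences, 4574 to 5856 heart effects and 3164 to 5254 kidney effects. With the replicate block of number as a term the organ difference count was 5176, and with treatment and number as 1 rat 4676; Atp2b2, Cma1, Hbb and Trpm1 lost their call there, and Arntl gained one. The labels do not say that a number marks 1 rat. In 7 heart and kidney pairs of 1 number the deviations correlated at 0.0904 to 0.292, over 0.1 in 5, and all 7 hearts matched their own number best. Removing each library's gene length trend, also chosen after seeing the data, left 4925 organ differences (1989 higher, 2936 lower). It turned the heart split from 57.9% to 47.1% higher, and DESeq2 turned the kidney split from 59.9% to 41.2%. Of 112 called genes named, 33 kept their call with the index, 79 with log2 total count, 108 with the length trend removed, and 103 without each library in turn. Bst2, Ifi27 and Cxcl10, named without values, are not counted among the 112. With the index the organ difference changed sign for Atp2b2 (-2.17), Hbb (0.10), Mcm3 (0.21), Mki67 (1.76) and Pfkl (0.032), and, called in neither fit, for Fn1 (0.63) and Spp1 (1.97); the cause was not tested. Leaving out 1 sham heart ended the calls of Atp2b2, Clock, Defb1, Efhc2, Igf1, Igh-6, Lcn2, Trpm1 and Upk1a. For Upk1a, Igf1 and Atp2b2, leaving out a library of another group ended the call as well. They lost it in 11, 6 and 5 of the fits without 1 library. Sham hearts number 3, which limits the precision of every heart change.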

Other observations

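Stress and metabolic lists not described above were counted beside all genes, of which 16.9% had a called higher and 17.5% a lower heart change. Of 23 cholesterol synthesis genes, 4 (17.4%, near the share of all genes) had a called lower heart change and none a higher one (median -0.37), and 9 rose in kidney. Pmvk, a kinase of the mevalonate pathway, fell in heart (-0.80) and rose in kidney (0.53), while Cyp51, a demethylase further down the pathway, rose in kidney (0.84) with a heart change of 0.07 (SE 0.14). Of 11 heat shock and cold response genes, 4 (36.4%) were lower and 1 (9.1%) higher. Hspa8, the constitutive HSC70 chaperone, rose in heart from 666, 643 and 683 CPM to 1166, 1276, 1376 and 1095 CPM and fell in kidney from 867, 1019, 874 and 919.6 CPM to 517, 580.3, 799 and 684 CPM, without overlap. Cirbp, an RNA-binding protein induced by cold, fell in heart (-1.37, SE 0.16). Of 19 NRF2 antioxidant genes, 4 (21.1%) were lower and 2 (10.5%) higher. Hmox1, which breaks down heme, rose in kidney from 5.86, 6.38, 5.86 and 3.89 CPM to 34.7, 21.8, 24.8 and 24.6 CPM with a heart change of 0.39 (SE 0.21). Of 15 p53 and senescence genes, 4 were lower and none higher, and of 20 ER stress genes, 2 were lower and 4 higher.

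Markers of other cell types that the dissected tissue could hold were counted in the same way. Of 9 adrenal and urothelial markers, none of which reached 1 CPM in both organs, 6 rose in kidney, and their summed level was 4.88 to 9.01 CPM in Kidney Sham and 8.33 to 141 in Kidney AVF+NX. Upk1a, a uroplakin of urothelium, was 0.963, 1.37, 0.345 and 0.283 CPM and 13.1, 2.74, 1.19 and 5.84 CPM in these groups. Of 8 adipocyte markers 2 had a called lower heart change, among them Fabp4, a fatty acid carrier (-2.74, SE 0.59). Of 7 blood cell markers 2 were lower, among them Hbb, a globin, which fell in heart (-1.30, SE 0.32). Of 12 pericyte and smooth muscle markers 3 were lower, and of 9 neutrophil and mast cell markers 2. Of 5 skeletal muscle markers none was called, of 8 nerve and glia markers 1 was higher, of 15 basement membrane genes 3 were higher and 3 lower, and of 14 glucocorticoid-responsive genes 1 was higher and 3 lower. Of 20 splicing and chromatin factors 3 were higher and 1 lower. The part of these cell types in the results above was not tested.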
